A study of Gallus gallus with 4 samples.

Results

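The apical polarity and constriction genes described here are CRB1, CRB2, PARD3, PARD6B, PARD6G, PRKCI, PRKCZ, TJP1 and SHROOM3. They were taken by symbol, 9 of 18292 named genes, and their transcripts were summed by gene. All 9 were present and passed the filter on low counts that left 16771 genes for testing. The libraries came from chick retina at embryonic day 5, electroporated as explants with ThrbCRM1-GFP, whose element belongs to the thyroid hormone receptor gene THRB, and with UbiqC-Tdt, and kept in culture for about 20 hours. Sorting gave the ThrbCRM1 population, positive for both reporters, and the UbiqC population, labelled by the Tdt reporter, with 2 polyA RNA libraries (A and B) from each. In what follows, paired values stand in the order A, B. Both populations thus came from electroporated tissue that received both plasmids, and ThrbCRM1 cells are defined by the activity of that element, not by a cell type marker.

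Epithelial cells keep an apical and a basal side through protein complexes that sit at the apical membrane and its junctions. The Crumbs complex is built on a transmembrane protein, the PAR complex joins the scaffolds PAR3 and PAR6 with an atypical protein kinase C, and both meet at the junctional belt. Retinal progenitors are neuroepithelial cells attached to the apical surface by such a belt, which in the mature retina becomes the outer limiting membrane between photoreceptors and Müller glia. SHROOM3 binds actin at this belt and drives apical constriction, the narrowing of the apical cell end that bends an epithelium.

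Estimated counts summed to 30959178 and 16087500 for the ThrbCRM1 libraries and to 15673010 and 31659766 for those of UbiqC, so each population had a deeper and a shallower library. EGFP stood at 9805 and 15147 TPM in ThrbCRM1 and 150 and 156 TPM in UbiqC. The Tdt reporter stood at 3547 and 14505 TPM in ThrbCRM1 and 2124 and 5637 TPM in UbiqC, so its populations overlapped. All 4 libraries are labelled as retinal progenitor cells, which was checked against marker genes. Of 10 tested retinal progenitor markers 8 were lower and 1 was higher in ThrbCRM1, and their summed level ran from 2369 to 2491 CPM (counts scaled to library size) in ThrbCRM1, against 7957 to 8239 CPM in UbiqC. Without FABP7, the most abundant of them in UbiqC, the other 9 summed to between 1756 and 1822 CPM for ThrbCRM1, and to between 2893 and 2947 CPM for UbiqC. All 8 markers of restricted progenitors and photoreceptor precursors were higher in ThrbCRM1, with sums of 4174 to 5086 CPM against 164.9 to 172.1 CPM. THRB, whose element drove the sorted reporter, is among these 8, at 773.8 and 1010 CPM against 20.69 and 23.94 CPM. Its rise is therefore no separate check of cell type. Of 8 tested endothelial and mesenchymal markers 3 were lower and 1 was higher in ThrbCRM1, with COL1A1 and TWIST1 under 1 CPM in every library. Their sums were 69.5 to 75.4 CPM in ThrbCRM1 against 192.7 to 249.9 CPM in UbiqC. KDR made up most of the UbiqC sums, at 157.3 and 210.8 CPM against 16.46 and 17.35 CPM in ThrbCRM1. PDGFRA, the higher one, averaged 33.6 CPM in ThrbCRM1 against 10.2 CPM in UbiqC. The 4 that did not pass were PECAM1 (0.52 on the log2 scale), TIE1 (0.17), COL1A1 (-0.84) and TWIST1 (-1.05). Of 7 pigment epithelium markers 2 were higher and 1 was lower in ThrbCRM1. They summed to 32.9 to 33.1 CPM against 43.4 to 49.9 CPM. MITF, the lower one, averaged 13.3 CPM in ThrbCRM1 against 34.1 CPM in UbiqC. The 2 higher were DCT, at 10.4 against 5.36 CPM, and TYRP1, at 1.35 against 0.095 CPM. Ganglion cell and young neuron markers, 3 higher and 4 lower of 11, summed to 1213 to 1441 CPM against 1365 to 1371 CPM. Horizontal and amacrine markers, 5 higher and 2 lower of 7, summed to 218.9 to 311.6 CPM against 150 to 162 CPM. The 2 lower were PROX1 (-2.84 on the log2 scale) and PAX2 (-2.26). They made up most of the UbiqC sums, PROX1 at 81.6 and 95.9 CPM and PAX2 at 51.7 and 45.75 CPM. Whether PAX2 marks these cell types in this tissue was not tested. The 5 higher rose by 2.75 (TFAP2B) to 5.13 (PTF1A) on the log2 scale. Lens markers (2 higher and 1 lower of 3 tested, CRYBB1 under 1 CPM) came to 137.7 to 194.6 CPM against 47.8 to 60.6 CPM. CRYBA4 alone made up most of these lens sums, at 191.3 and 134.7 CPM in ThrbCRM1 and 57.1 and 44.1 CPM in UbiqC. BFSP2, the lower lens marker, averaged 0.675 CPM in ThrbCRM1 against 3.04 CPM in UbiqC. Blood markers (1 higher and 1 lower of 2, TAL1 under 1 CPM) came to 10.96 to 11.97 CPM against 5.41 to 7.39 CPM. The part of these marker shifts in the results on polarity genes was not tested. In bulk libraries, fewer cells of a type and less RNA per cell cannot be told apart. Whether the A and B libraries are of separate cultures is not stated, and the spread that p-values rest on may therefore be technical.

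The comparison of ThrbCRM1 with UbiqC sets the apical machinery of cells with an active ThrbCRM1 element beside that of the UbiqC cells. The 2 Crumbs genes moved in opposite directions, CRB1 up about 2-fold and CRB2 down more than 4-fold. SHROOM3 fell about as far as CRB2. Both atypical protein kinase C genes changed, PRKCI upward and PRKCZ downward, PARD3 fell by a smaller amount, and PARD6B, PARD6G and TJP1 did not pass the test. With edgeR's quasi-likelihood test and Benjamini-Hochberg adjustment over all tested genes, 2 of the 9 genes were higher and 4 lower in ThrbCRM1, where 40.8% of all tested genes passed (19.9% higher and 20.9% lower). The libraries of the populations did not overlap in CPM for 8 of the 9 genes, against 72.0% of all tested genes. The median log2 fold change of the 9 genes was 0.09, beside -0.01 for all tested genes. The 2 higher genes, CRB1 and PRKCI, had log2 fold changes of 1.09 and 0.38 without ThrbCRM1 A. Without ThrbCRM1 B these were 0.95 and 0.32. PRKCI lost its call in both of these fits.

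**Figure D1:**
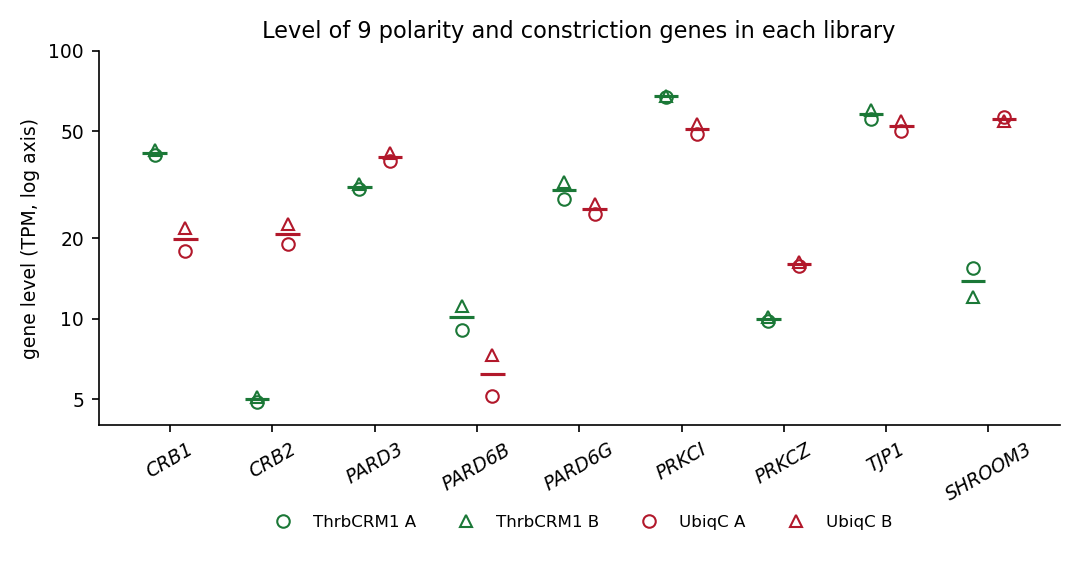
Level of each gene in TPM (log axis) in ThrbCRM1 (green) and UbiqC (red), with circles for library A, triangles for library B and bars for the mean of 2 libraries. CRB2 and SHROOM3 lie far lower in ThrbCRM1 and CRB1 lies higher, while the TJP1 libraries of both populations lie between 50 and 60.3 TPM.

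CRB1 and CRB2 encode the large transmembrane Crumbs proteins, whose short cytoplasmic tails bind the scaffold PALS1 and PAR6. On the TPM scale, which divides by transcript length and library size, CRB1 stood at 40.7 and 42.6 TPM in ThrbCRM1 and at 17.9 and 21.7 TPM in UbiqC. Both ThrbCRM1 libraries were above both UbiqC libraries, and the log2 fold change (ThrbCRM1 minus UbiqC) was 1.01 ± 0.10 (SE, edgeR adjusted p = 0.000582). CRB2 stood at 4.90 and 5.11 TPM in ThrbCRM1 and at 18.9 and 22.5 TPM in UbiqC. Its populations did not overlap either, and its log2 fold change was -2.15 ± 0.10 (edgeR adjusted p = 3.32e-05). Of all tested genes 2.99% were called with a fall of at least 4-fold, CRB2 and SHROOM3 among them, and 8.66% with a rise of at least 2-fold, CRB1 among them.

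The Crumbs sum differed less than either gene on the TPM scale. CRB1 and CRB2 together came to 45.6 and 47.7 TPM in ThrbCRM1 and to 36.8 and 44.3 TPM in UbiqC. Both ThrbCRM1 sums were above both UbiqC sums, the closest pair being 45.6 and 44.3 TPM. CRB2 made up 10.7% ± 0.0275 (SD, n = 2) of that sum in ThrbCRM1 and 51.1% ± 0.290 in UbiqC. The ratio of CRB2 to CRB1 was 0.120 in both ThrbCRM1 libraries and 1.06 and 1.04 in UbiqC, an 8.71-fold difference between the mean ratios. An exact permutation test of 2 against 2 cannot give a two-sided p below 0.333, so no p is given for the ratios. In UbiqC, CRB1 and CRB2 were thus at about the same level, and their libraries overlapped. In ThrbCRM1, CRB2 was the lowest of the 9 genes and CRB1 the third highest.

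**Figure D2:**
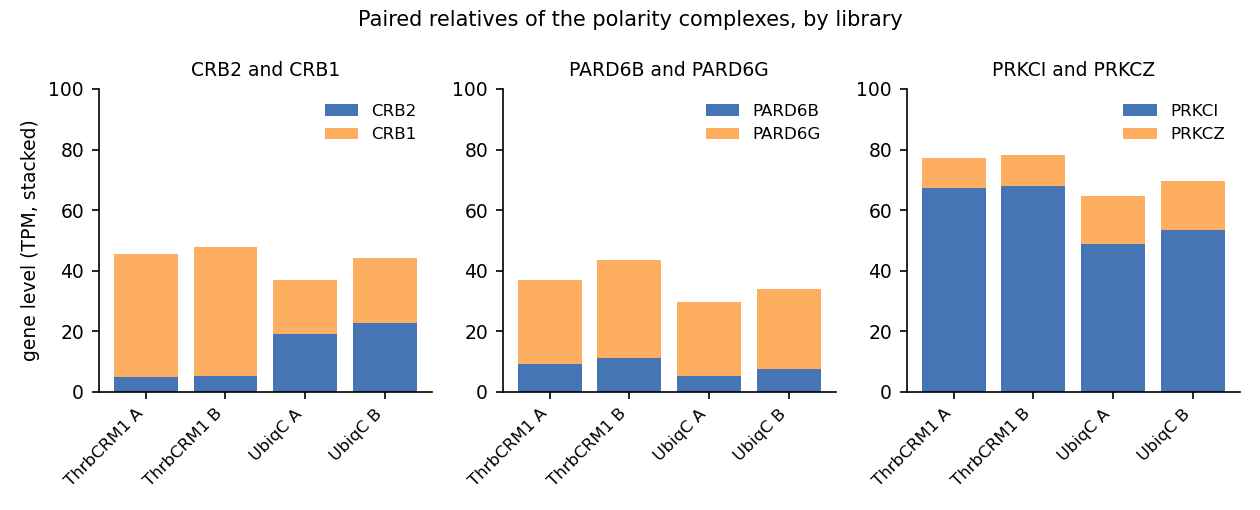
Stacked levels in TPM of CRB2 and CRB1, PARD6B and PARD6G, and PRKCI and PRKCZ in each of the 4 libraries. The CRB2 part shrinks from 51.1% of the Crumbs sum in UbiqC to 10.7% in ThrbCRM1 while the sums stay between 36.8 and 47.7 TPM.

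Each Crumbs transcript with a mean of at least 1 TPM moved with its gene. The shorter CRB1 transcript (9283 bases) stood at 29.4 and 25.0 TPM in ThrbCRM1 and at 13.1 and 14.5 TPM in UbiqC, and the longer (10313 bases) at 11.3 and 17.6 TPM against 4.78 and 7.19 TPM. The longest CRB2 transcript (8980 bases) fell from 14.2 and 15.6 TPM in UbiqC to 3.22 and 3.49 TPM in ThrbCRM1. It held 65.7% and 68.3% of the gene in ThrbCRM1 and 75.3% and 69.4% in UbiqC, which did not overlap but whose gap was smaller than the spread within UbiqC. These are levels with no test, since the error of dividing reads between transcripts is not known here.

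SHROOM3 encodes the actin-binding protein of apical constriction. It stood at 15.5 and 12.1 TPM in ThrbCRM1 and at 56.5 and 54.5 TPM in UbiqC. The populations were far apart, with 692 estimated counts in the shallowest ThrbCRM1 library, and the log2 fold change was -2.05 ± 0.11 (SE, edgeR adjusted p = 5.49e-05). SHROOM3 was the highest of the 9 genes in UbiqC, where it overlapped TJP1 and TJP1 overlapped PRKCI, and the sixth in ThrbCRM1. Among its 7 transcripts, the 6506-base form led in UbiqC with 32.4 and 16.9 TPM and stood at 5.26 and 2.26 TPM in ThrbCRM1. The 7542-base form stood at 12.2 TPM in both UbiqC libraries and at 3.04 and 1.37 TPM in ThrbCRM1. Libraries of a population disagreed on other forms, such as the 7544-base form at 0.143 and 4.30 TPM in UbiqC.

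The other tested SHROOM genes had fold changes nearer to 0 than SHROOM3. SHROOM2, which also binds actin, was higher in ThrbCRM1 (160.3 against 121.3 CPM, log2 fold change 0.40, edgeR adjusted p = 0.0123). SHROOM4 was slightly lower (-0.37, edgeR adjusted p = 0.0484) and SHROOM1 differed by -0.02 (edgeR adjusted p = 0.934). The choice to name these 3 genes followed their values.

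PRKCI and PRKCZ encode the atypical protein kinases C iota and zeta, the catalytic part of the PAR complex. PRKCI stood at 67.4 and 68.1 TPM in ThrbCRM1 and at 48.9 and 53.3 TPM in UbiqC. It was the highest of the 9 genes in ThrbCRM1, and its log2 fold change was 0.34 ± 0.07 (SE, edgeR adjusted p = 0.00942). PRKCI lost its call without ThrbCRM1 A (edgeR adjusted p = 0.0637) and without ThrbCRM1 B (0.0792). PRKCZ stood at 9.79 and 10.2 TPM in ThrbCRM1 and at 15.8 and 16.3 TPM in UbiqC, with a log2 fold change of -0.76 ± 0.11 (edgeR adjusted p = 0.00248). The ratio of PRKCI to PRKCZ was 6.89 and 6.70 in ThrbCRM1 and 3.10 and 3.26 in UbiqC. PRKCI RNA was thus the more abundant in all 4 libraries, and protein was not measured. Their sum was 77.2 and 78.2 TPM in ThrbCRM1 and 64.6 and 69.7 TPM in UbiqC.

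The PRKCZ transcript with the highest mean in each population (2955 bases) stood at 10.5 and 10.4 TPM in UbiqC and at 3.73 and 6.34 TPM in ThrbCRM1. In ThrbCRM1 A the 2749-base form was slightly above it. The 2955-base form was the only one of 4 whose libraries did not overlap between the populations. Both PRKCI transcripts were higher in both ThrbCRM1 libraries, the 4333-base form at 46.9 and 43.5 TPM against 36.0 and 36.6 TPM. The 2749-base PRKCZ form was listed at 3.81 and 0.000218 TPM in the ThrbCRM1 libraries, so the division of reads among PRKCZ forms was not stable between libraries of a population.

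PARD6B and PARD6G encode PAR6 adaptors, which hold the kinase and bind CDC42, a small GTPase. PARD6B stood at 9.11 and 11.2 TPM in ThrbCRM1 and at 5.16 and 7.29 TPM in UbiqC. Both ThrbCRM1 libraries lay above both UbiqC libraries, but with 70 to 226 estimated counts a library its log2 fold change of 0.62 ± 0.23 (SE) missed the threshold (edgeR adjusted p = 0.0751, 95% interval 0.06 to 1.18). PARD6B passed without UbiqC B (edgeR adjusted p = 0.0364), and over all alternatives its adjusted p lay between 0.0135 and 0.289. PARD6G stood at 27.9 and 32.4 TPM in ThrbCRM1 and at 24.6 and 26.7 TPM in UbiqC, with a log2 fold change of 0.17 ± 0.11 (edgeR adjusted p = 0.277, 95% interval -0.10 to 0.43). PARD6G exceeded PARD6B in all 4 libraries, at a ratio of PARD6B to PARD6G of 0.327 and 0.344 in ThrbCRM1 and 0.210 and 0.273 in UbiqC.

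TJP1 encodes ZO-1, a scaffold that ties junctions to actin. It stood at 55.9 and 60.3 TPM in ThrbCRM1 and at 50 and 54.6 TPM in UbiqC. In CPM its populations overlapped, alone among the 9 genes, with a log2 fold change of 0.09 ± 0.08 (SE, edgeR adjusted p = 0.412, 95% interval -0.10 to 0.28). Within that sum, some of its 5 transcripts differed. The 7068-base form stood at 15.6 and 18.9 TPM in ThrbCRM1 against 8.0 and 10.2 TPM in UbiqC, and the 6908-base form at 0.874 and 1.5e-05 TPM against 5.81 and 5.64 TPM. The leading 6734-base form overlapped, with 52.1% of the gene in ThrbCRM1 and 52.2% in UbiqC.

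**Figure D3:**
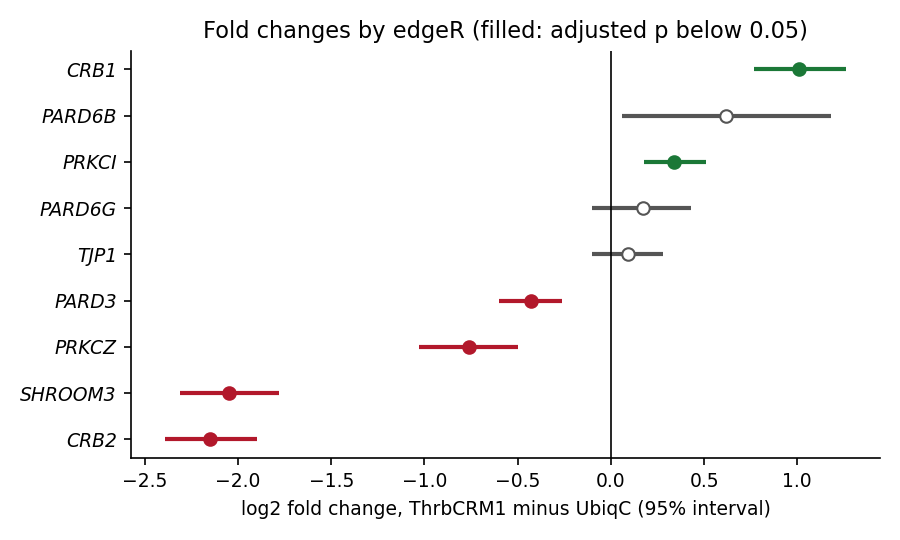
Log2 fold changes of the 9 genes by edgeR (ThrbCRM1 minus UbiqC) with 95% intervals. Filled points passed the test, green where higher and red where lower in ThrbCRM1, and the intervals of PARD6G and TJP1 span 0.

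PARD3 encodes PAR3, the scaffold that places the PAR complex at the junction. It stood at 30.4 and 31.7 TPM in ThrbCRM1 and at 38.7 and 41.7 TPM in UbiqC. The populations did not overlap, and the log2 fold change was -0.43 ± 0.07 (SE, edgeR adjusted p = 0.00435). Its call was lost without ThrbCRM1 A (edgeR adjusted p = 0.0657).

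The modest change of PARD3 as a whole covered a sharp difference in the estimated levels of its 15 transcripts. A set of 4, of 5870, 5834, 5768 and 5759 bases, was under 0.01 TPM in both ThrbCRM1 libraries and summed to 9.51 and 10.4 TPM in UbiqC, 24.6% and 25.0% of the gene. Another set of 4, of 5882, 5828, 5780 and 5771 bases, summed to 9.23 and 8.73 TPM in ThrbCRM1, 30.4% and 27.5% of the gene, and to 0.787 and 0.0163 TPM in UbiqC. The other 7 transcripts held 69.6% and 72.4% of PARD3 in ThrbCRM1 and 73.4% and 75.0% in UbiqC. These sets were chosen after their values were seen, so their separation is a description with no test. The error of dividing reads between forms of such close length is not known here either.

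**Figure D4:**
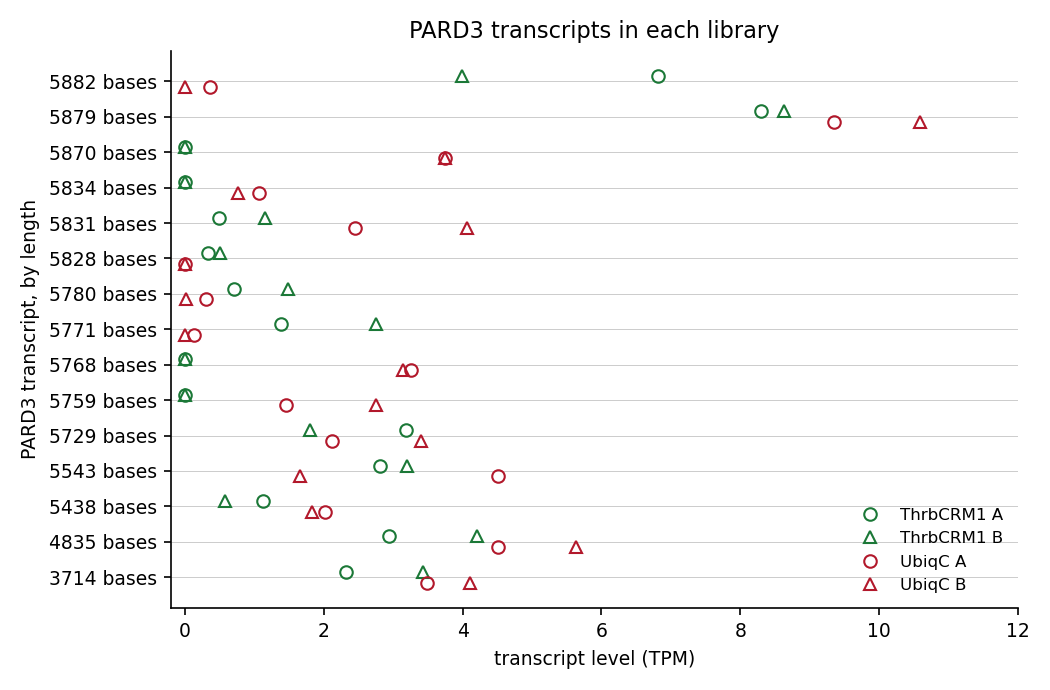
Level in TPM of each of the 15 PARD3 transcripts, named by length, in ThrbCRM1 (green) and UbiqC (red), with circles for library A and triangles for library B. The forms of 5870, 5834, 5768 and 5759 bases lie under 0.01 TPM in both ThrbCRM1 libraries, and those of 5882, 5828, 5780 and 5771 bases lie under 0.4 TPM in both UbiqC libraries.

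The leading members of the sets were the 5882-base form, at 6.81 and 3.99 TPM in ThrbCRM1 against 0.357 and 0.00157 TPM in UbiqC, and the 5870-base form, at 0.000326 and 0.00344 TPM against 3.74 and 3.75 TPM. These forms differ by 12 bases in length. The same difference of 12 bases separates the 5780-base form of the ThrbCRM1 set from the 5768-base form of the UbiqC set, and the 5771-base form from the 5759-base form. Among all 105 pairs of PARD3 transcripts 3 pairs differ by 12 bases. All 3 join the sets in this way, with the longer form in ThrbCRM1. The 12 bases were picked as the most frequent difference among the 16 pairs between the sets. This count is therefore a description with no test. Lengths alone do not show that the same stretch is concerned. Other small differences occur too, such as 3 bases between the 5771-base and 5768-base forms. Their number among all pairs was not counted, so a difference of 12 bases is not singled out. The forms left over are of 5828 bases in the ThrbCRM1 set and 5834 bases in the UbiqC set, with the longer form in UbiqC. The 5780-base and 5768-base forms are among 6 of the 15 PARD3 transcripts, and 15 of the 40 of all 9 genes, that the reference gene table does not list, and they carry their gene name from the authors' sheet alone. The leading PARD3 form (5879 bases) stayed at 8.29 and 8.63 TPM in ThrbCRM1 and 9.36 and 10.6 TPM in UbiqC.

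Over all 9 genes, 35 of 40 transcripts had a mean of at least 1 TPM, and 26 of these did not overlap between the populations, 9 higher and 17 lower in ThrbCRM1. That is 74.3% of them, against 62.0% of all named transcripts at that level. Of those 25021 transcripts, 8657 were higher and 6863 lower in ThrbCRM1 without overlap. PARD3 alone held 8 of the 17 lower and 2 of the 9 higher transcripts, by a division of reads whose error is not known. For CRB1, PARD3, PARD6B, PRKCZ and TJP1 the estimated counts summed to whole reads within 0.05 in all 4 libraries, the form sums take when no read was divided with another gene. CRB2 was not whole in any library, and PARD6G, PRKCI and SHROOM3 were whole in 1, 1 and 3 libraries, as sums are when reads were divided with other sequences.

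In the authors' deposited table, made with sleuth, 6 of the 9 genes had q below 0.05, the same 6 genes with the same directions. The share of all genes below that q was not counted, so the 6 cannot be set against it. Its q-values were 3.36e-68 for CRB2 and 1.36e-34 for SHROOM3 in the authors' deposited table, and that of PARD6B was 0.0535 there. Both results came from the same 4 libraries, so the table is not an independent check.

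Further genes of the machinery were read from 5 lists of related genes. Among 17 tested partners of the Crumbs and PAR complexes 6 were higher, 3 lower and 8 did not pass (edgeR, 52.9% called against 40.8% of all tested genes; median log2 fold change 0.14). TIAM1 and TIAM2, exchange factors for RAC that can bind PAR3, rose, TIAM1 from 67.2 ± 9.28 to 145.4 ± 5.85 CPM (SD, n = 2; 1.11 ± 0.11 SE on the log2 scale) and TIAM2 from 32.4 ± 1.37 to 84.2 ± 2.51 CPM (1.38 ± 0.08). MPP3, a MAGUK scaffold of the PALS1 family, rose from 12.7 to 31.7 CPM (1.31). WWC1, a scaffold that binds atypical protein kinase C and acts in the Hippo pathway, fell from 82.3 ± 3.36 to 41.3 ± 7.03 CPM (-0.98). The edgeR adjusted p of these 4 genes was at most 0.00152. MPP5, which encodes PALS1, the direct partner of Crumbs, averaged 77.1 CPM in ThrbCRM1 against 72.7 CPM in the UbiqC libraries (log2 fold change 0.08, edgeR adjusted p = 0.612). MPP5 is named here with its value known. Fewer partners passed as higher without ThrbCRM1 A or without ThrbCRM1 B, and the same held for all tested genes.

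Among 16 tested basolateral polarity genes, which oppose the apical complexes, 2 were higher and 5 lower (edgeR, 43.8% called, near the 40.8% of all tested genes; median log2 fold change -0.10). LRRC1, a leucine-rich repeat scaffold related to SCRIB, fell from 48.0 ± 1.65 to 10.8 ± 1.01 CPM (SD, n = 2; -2.16 ± 0.11 SE on the log2 scale). ERBB2IP, of the same protein family, fell from 204.3 to 105.1 CPM (-0.96), and LLGL1, a Lethal giant larvae homologue that atypical protein kinase C phosphorylates, fell from 188.0 to 98.6 CPM (-0.93). DLG3, a MAGUK scaffold, fell by 0.59 on the log2 scale, but with transcript length offsets its log2 fold change was -0.27 with an adjusted p of 0.0865. The edgeR adjusted p of these 4 genes was at most 0.00376. The 2 higher genes, named with their values known, were LLGL2, a relative of LLGL1, and DLG2. LLGL2 rose from 37.8 to 52.5 CPM (0.47). DLG2 rose from 0.573 to 2.67 CPM (2.3), with 11.8 to 85.7 estimated counts a library. Both higher calls of this list were lost without ThrbCRM1 A, a fit in which fewer of all tested genes passed as well.

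Among 27 tested genes of tight and adherens junctions 3 were higher and 13 lower (edgeR, 59.3% called against 40.8% of all; median log2 fold change -0.34 against -0.01). VCL, which encodes the actin linker vinculin, fell from 290.6 ± 9.35 to 74.3 ± 0.0811 CPM (SD, n = 2; -1.97 ± 0.07 SE on the log2 scale), and CGNL1, a junctional cingulin relative, fell from 78.3 ± 9.38 to 25.3 ± 1.12 CPM (-1.63). CTNNA2, the neural alpha-catenin, rose from 91.6 to 183.7 CPM (a 2.01-fold difference), while CTNNA1, the epithelial one, chosen with its value known, fell by 0.76 on the log2 scale. The edgeR adjusted p of these 4 genes was at most 0.000444. Fewer junction genes passed as higher when any single library was left out, and the same held for all tested genes.

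Among 30 tested genes of apical constriction and actomyosin 5 were higher and 12 lower (edgeR, 56.7% called against 40.8% of all; median log2 fold change -0.12). CELSR1, a planar polarity cadherin, stood at 153.6 and 151.0 CPM in ThrbCRM1 and at 852.8 and 896.7 CPM in UbiqC (log2 fold change -2.52 ± 0.07 SE). MYL9, a myosin regulatory light chain, fell from 20.5 ± 1.58 to 2.72 ± 0.589 CPM (SD, n = 2; -2.88 ± 0.19), and MYH9, a non-muscle myosin II heavy chain, from 481.0 ± 57.2 to 197.7 ± 17.8 CPM (-1.28). MYH10, the other tested non-muscle heavy chain, chosen with its value known, averaged 605.6 CPM for ThrbCRM1 against 610.1 CPM for UbiqC (log2 fold change -0.01, edgeR adjusted p = 0.923). EVL, an actin regulator of the Ena/VASP family, rose from 83.5 to 153.1 CPM (0.88 ± 0.09). The edgeR adjusted p of CELSR1, MYL9, MYH9 and EVL was at most 0.000672. Without ThrbCRM1 A or without ThrbCRM1 B fewer of these genes passed as higher, and the same held for all tested genes.

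Among 17 tested genes of the apical membrane and its ERM linkers, which tie membrane proteins to actin, 8 were higher and 5 lower (edgeR, 76.5% called against 40.8% of all; median log2 fold change -0.04). EPB41L4A, a FERM domain gene, stood at 311.0 and 348.4 CPM in ThrbCRM1 against 63.9 and 63.8 CPM in UbiqC, and rose by 2.37 ± 0.08 (SE) on the log2 scale. MSN, which encodes moesin, had a log2 fold change of -1.29 (96.7 and 93.3 CPM in ThrbCRM1, 223.6 and 241.4 CPM in UbiqC). PODXL, the apical sialomucin podocalyxin, fell from 393.9 to 147.4 CPM (-1.42). SLC9A3R2, a PDZ scaffold that binds ERM proteins, fell from 60.7 to 13.8 CPM (-2.13). Its relative SLC9A3R1, chosen with its value known, rose by 0.98, so the scaffolds of that pair moved in opposite directions as the Crumbs genes did. The edgeR adjusted p of these 5 genes was at most 0.000481. Across the 5 lists together, 24 of 107 tested genes were higher and 38 lower, or 57.9% called, where 40.8% of all tested genes were called, 19.9% higher and 20.9% lower.

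**Figure D5:**
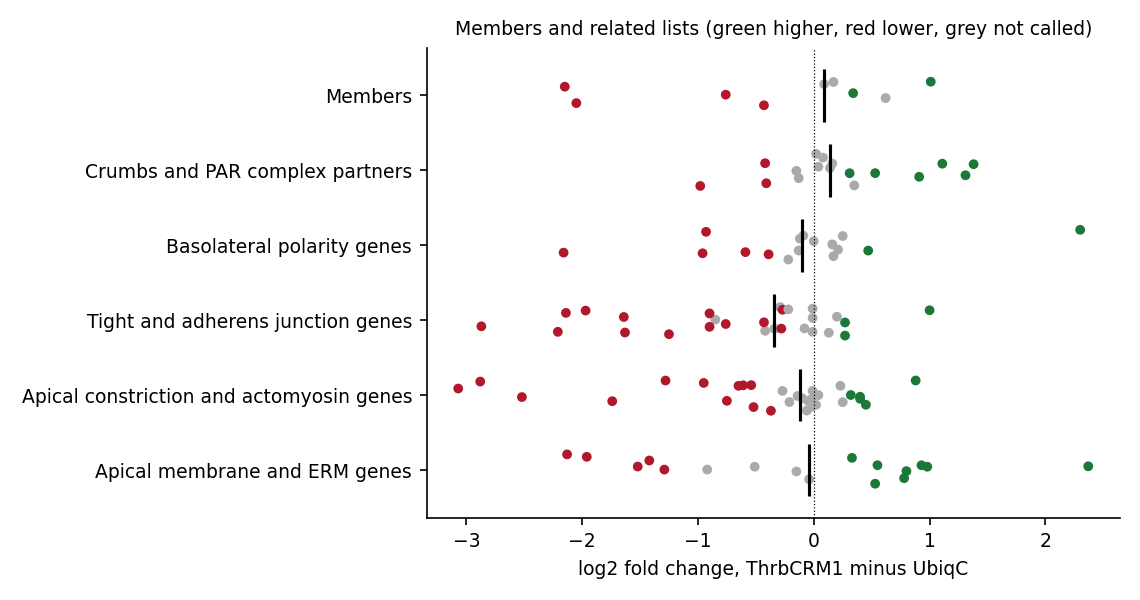
Log2 fold change (ThrbCRM1 minus UbiqC) of every tested gene among the 9 members and the 5 related lists, green where higher, red where lower and grey where the edgeR test was not passed, with a black bar at each median. Medians run from -0.34 for junction genes to 0.14 for complex partners.

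The genes most like CRB2 and SHROOM3 in their 4 libraries were found by the Euclidean distance between centred log2 CPM values, among 8904 other genes that had a mean of at least 10 CPM and a gene symbol rather than a locus or open reading frame name. Nearest to CRB2 were SERPINH1, a collagen chaperone gene (distance 0.0633), EMP2, a tetraspan membrane protein gene (0.0734), and TSPAN6, a tetraspanin gene (0.0741), with log2 fold changes of -2.20, -2.09 and -2.15. Nearest to SHROOM3 were SOX13, a transcription factor gene (0.0511), SNX16, an endosomal sorting nexin gene (0.0783), and SLC9A3R2 (0.108), with log2 fold changes of -2.06, -2.08 and -2.13. The distance was taken over 4 libraries only.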

How the data were processed

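PolyA RNA of 4 libraries was processed by the authors with kallisto and sleuth, with galGal5 as the genome build, per the submitters' processing notes. Tool versions and strandedness are not given in the sources used here, so antisense reads cannot be told apart. The deposited abundance table of each library lists expected counts and TPM by transcript, beside its length and effective length in bases, other values the authors deposited. The authors' deposited gene comparison holds p-values, q-values, a natural log effect and its standard error (a score here). The deposited transcript sheet, a signal equal to kallisto TPM times 1 factor per library (0.967 to 1.035), supplied gene names. Of 21 symbols turned into day numbers, 19 were resolved by the RefSeq gene table of another assembly (bGalGal1.mat.broiler.GRCg7b), which served for names only, so positions are left out.

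Estimated counts were summed by gene and rounded, leaving out both reporters. edgeR 4.0.16 (R 4.3.3) used TMM (0.988 to 1.007), filterByExpr (minimum count 10), quasi-likelihood F tests with 2 residual degrees of freedom, and Benjamini-Hochberg adjustment at 0.05. Each SE is the log2 fold change, without its sign, over the square root of F. The 95% intervals use edgeR's total degrees of freedom, which exceed the 2 residual ones because variance is moderated across genes. CPM values use TMM-scaled library sizes. The common biological coefficient of variation was 10.6%. A and B exceeded counting noise in both populations (chi-square over its degrees of freedom 8.22 for ThrbCRM1, 9.83 for UbiqC). DESeq2 1.42.0 and limma 3.58.1 were alternatives, and the steps were tested on simulated data. The named genes were the 9 members, from each list the 4 genes of lowest edgeR p, and the 3 nearest to CRB2 and to SHROOM3. Of these, 1 gene is not reported here. The members and lists were chosen with earlier results of these data known. Of the listed genes, 108 of 118 were found, and the others are not analysed here. Tables were handled with Python 3.11.15, pandas 2.3.3 and matplotlib 3.10.9.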

Additional observations from a re-analysis of the deposited data

How the results depend on the processing

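Over 13 alternatives, the 34 named genes gave 442 values, of which 431 kept their direction and their side of the threshold, 7 lost a call, 4 gained a call and 0 changed direction. CRB1, CRB2, PRKCZ and SHROOM3 were called under all 13, with log2 fold changes of 0.89 to 1.15, -2.23 to -1.85, -0.83 to -0.64 and -2.20 to -1.91. PARD6G (0.04 to 0.30) and TJP1 (0.01 to 0.17) were called under none. PARD6B passed with limma on log2(TPM + 1) and on log2(TPM + 0.1) with the filter at 1 TPM, without UbiqC B and with a replicate block of letters, and DLG3 lost its call in these limma fits, in that on log2(TPM + 1) with no filter, and with length offsets (log2 fold changes of -0.27 to -0.20). Leaving out each library, the members numbered 1 to 3 higher and 3 to 4 lower, all genes 1888 to 3137 higher and 1958 to 3052 lower, complex partners 3 to 4 higher, basolateral genes 0 to 2 higher, junction genes 1 to 2 higher, and constriction genes 3 to 6 higher. The labels do not say that a letter marks a shared culture. A minus B differences of the populations correlated at r = 0.421 over 9847 genes of at least 10 CPM and 0.167 over all tested genes, and the replicate block called 4029 genes higher and 4347 lower, 5 basolateral genes higher and, among the members, 3 higher and 4 lower. Ratios of CPM in place of TPM were 0.0991 and 0.885 for CRB2 to CRB1, 0.170 and 0.123 for PARD6B to PARD6G, and 10.2 and 4.74 for PRKCI to PRKCZ (ThrbCRM1, then UbiqC), since CPM does not divide by length. By estimated counts the leading CRB2 transcript held 75.7% and 80.0% and the leading PARD3 transcript 29.2% and 26.7%. PARD6B rested on 70 to 226 estimated counts a library, which limits its precision.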
